A study of Mus musculus with 6 samples.

Results

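The liver stores and exports zinc, copper and manganese, and 10 genes of that system were followed here in mice fed polyethylene microplastic (PE-MP). The genes were Mt1, Mt2, Mtf1, Slc30a1, Slc30a10, Slc39a4, Slc39a8, Slc39a14, Atp7b and Cp. They were chosen by name, as the rows of the deposited count table with these symbols, and made up 10 of its 56674 rows. Liver RNA came from male C57BL/6 mice reared for 71 weeks, fed chow containing PE-MP or normal chow, with 3 libraries for each chow. The libraries were assigned to a chow by their titles and treatment entries; a separate protocol field names the PE-MP chow for all 6 libraries, those of normal chow included. All mice were of 1 strain and sex, and the labels name no altered allele. The dose and size of the particles and the age at which feeding began were not stated. Nor do the labels say that each library stands for a separate animal. The p-values therefore weigh chow differences against the spread among libraries, which may be technical. In the tests on counts, the spread of each gene was estimated with information from all tested genes. The question was whether prolonged intake of the plastic changed the mRNA of metal-binding and metal-transporting proteins in the liver.

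Metallothioneins are small proteins whose many cysteines bind zinc, copper and cadmium. Their genes are switched on by MTF1, a transcription factor that senses free zinc and binds metal response elements (MREs) in promoters; glucocorticoids and interleukin-6 also induce them in liver. Proteins of the SLC30 family move zinc or manganese out of the cytosol, and those of the SLC39 (ZIP) family move zinc, manganese or iron into it. ATP7B loads copper onto ceruloplasmin, the copper-carrying ferroxidase of plasma that Cp encodes, and exports the excess into bile.

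The 2 metallothionein coding sequences are shown because they carry the cysteines and because their likeness bears on read counting. In each sequence, read from the GENCODE M21 transcripts (build GRCm38, chromosome 8), capitals mark the cysteine codons, which number 20 of 61 codons in both genes.
Mt1: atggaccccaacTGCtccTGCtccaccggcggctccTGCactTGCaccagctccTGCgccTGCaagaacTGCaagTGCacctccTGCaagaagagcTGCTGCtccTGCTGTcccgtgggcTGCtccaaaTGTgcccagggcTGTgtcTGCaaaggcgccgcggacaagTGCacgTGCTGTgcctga
Mt2: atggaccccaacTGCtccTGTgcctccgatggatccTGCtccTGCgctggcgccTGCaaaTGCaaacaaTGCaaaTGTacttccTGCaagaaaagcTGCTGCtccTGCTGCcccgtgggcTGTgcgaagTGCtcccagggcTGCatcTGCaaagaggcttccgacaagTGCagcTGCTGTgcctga
All 20 cysteine codons stood at the same positions in both. Over the 186 coding bases 38 differed, so that 79.6% were identical, and the longest identical run was 20 bases. How reads that fit both genes were counted is not given in the sources used here.

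The promoter windows of Mt1, Mt2 and Slc30a1 are shown because these are the textbook targets of MTF1. Each spans 250 bases before to 50 after the start in RefSeq (GRCm38.p6), at chr8:94178839-94179138 (+ strand), chr8:94172368-94172667 (+ strand) and chr1:191906531-191906830 (+ strand). Capitals mark the MRE core, searched on both strands as TGCACNC or TGCGCNC.
Mt1: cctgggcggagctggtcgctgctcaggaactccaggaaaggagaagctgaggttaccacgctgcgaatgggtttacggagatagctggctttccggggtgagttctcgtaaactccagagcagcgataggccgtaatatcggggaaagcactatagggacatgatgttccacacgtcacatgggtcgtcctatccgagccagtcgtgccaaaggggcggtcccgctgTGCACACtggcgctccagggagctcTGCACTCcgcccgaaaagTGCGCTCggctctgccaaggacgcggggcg
Mt2: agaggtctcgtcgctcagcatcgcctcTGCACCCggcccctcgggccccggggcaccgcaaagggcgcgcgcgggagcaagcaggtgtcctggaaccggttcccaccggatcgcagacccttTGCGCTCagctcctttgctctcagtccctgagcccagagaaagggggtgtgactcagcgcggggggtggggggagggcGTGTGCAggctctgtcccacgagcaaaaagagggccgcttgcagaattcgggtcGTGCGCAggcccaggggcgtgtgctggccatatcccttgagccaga
Slc30a1: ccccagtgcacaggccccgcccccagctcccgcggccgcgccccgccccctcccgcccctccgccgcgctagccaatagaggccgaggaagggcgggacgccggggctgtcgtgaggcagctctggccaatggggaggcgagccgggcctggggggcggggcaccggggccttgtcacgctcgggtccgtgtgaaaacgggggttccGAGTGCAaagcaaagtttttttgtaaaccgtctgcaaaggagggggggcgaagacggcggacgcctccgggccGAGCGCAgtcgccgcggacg
The core occurred 3 times in the Mt1 window, 4 times in that of Mt2 and 2 times in that of Slc30a1. Of 32851 RefSeq windows of this length, 25.7% held at least 1 core, 7.11% at least 2 and 1.97% at least 3. A window was given for 8 members, 2 for Slc39a8 and 2 for Cp. Slc30a10 had 3 cores, of which 2 overlap on opposite strands, Atp7b had 1, the 2 windows of Slc39a8 had 0 and 1, and Mtf1 and both windows of Cp had 0. A match is a run of letters and was not tested as a binding site.

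The libraries held 75176645 to 91898953 counts under PE-MP chow and 68357478 to 112566641 under normal chow. Mitochondrially encoded RNA took 9.71% to 10.1% of the counts under PE-MP chow and 14.9% to 16.4% under normal chow. The 18S ribosomal RNA gene Rn18s-rs5 took 5.98%, 3.10% and 0.334% in PE-MP libraries 1, 2 and 3, against 2.92%, 11.2% and 1.15% in normal chow libraries 1, 2 and 3. All 10 members passed the expression filter, and the lowest count of any member in any library was 220. Of the cell type marker lists, that of hepatocytes had the highest sums. Its 6 tested markers summed to 67830 to 75770 CPM (read counts scaled to 1000000 per library) under PE-MP chow and to 64040 to 74710 CPM under normal chow. Alb alone stood at 47560 to 58520 CPM over the 6 libraries.

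No difference between the chows passed the test for any of the 10 genes. By edgeR 0 of 10 passed an adjusted p of 0.05, when 0.00554% of 18043 tested genes did. Leaving out normal chow library 2 brought the genes called by edgeR from 1 to 1075, still with 0 of the 10. At an unadjusted p under 0.05 there were also 0 of 10, against 17.9% of all tested genes. DESeq2 called 0 members and 5.02% of its tested genes, and limma-voom called 0 members and 0.0831%. The median log2 fold change (PE-MP chow over normal chow) was -0.10 for the 10 members, 3 above 0 and 7 below, and 0.018 for all tested genes. Adjusted p-values of members lay between 0.436 and 0.998 by edgeR. Whether a fold is above or below 0 depended on scaling: with total counts alone, in place of the TMM factors used throughout (which align the bulk of genes between libraries), the median of all genes was 0.32 and 9 of 10 members lay above 0. Measured against the median of all genes, 3 of 10 members lay above it under each of 4 scalings (TMM, RLE, upper quartile and total counts) and with mitochondrial and dominant genes left out.

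The size of change that these libraries leave possible differed between members. For Mtf1, Slc30a1, Slc39a8, Atp7b and Cp both ends of the 95% interval were closer to 0 than 1 log2 unit, as they were for 49.7% of tested genes. For 9 of the 10 both ends were closer than 2 log2 units, a share of 80.9% among all tested genes. Slc39a14 was the exception, with an interval of -1.60 to 2.97.

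**Figure D1:**
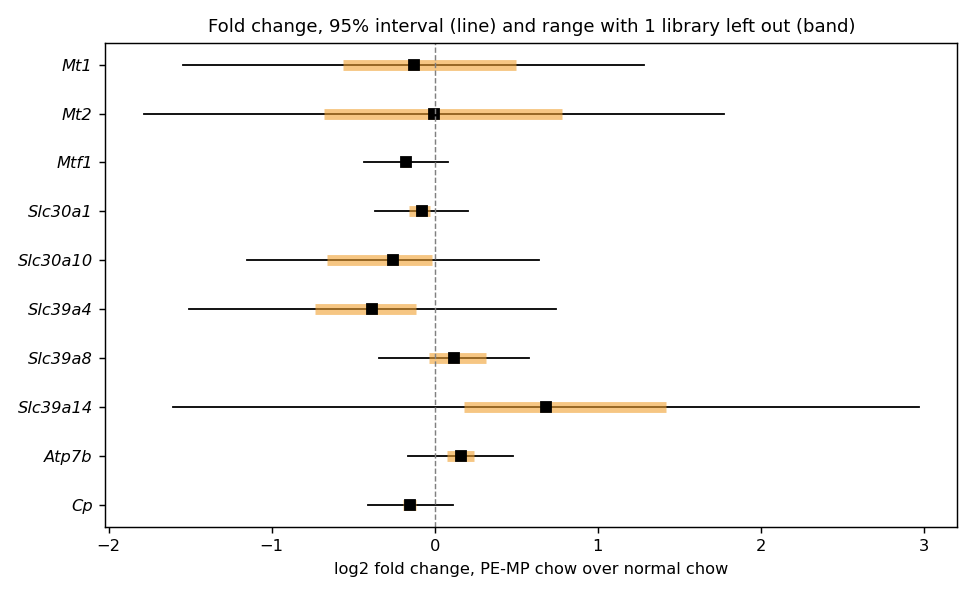
Log2 fold change of each member (squares; PE-MP chow over normal chow, horizontal axis) with its 95% interval (lines) and the range of values when 1 library at a time is left out (bands). Every interval crosses 0, and those of Mtf1, Slc30a1, Atp7b and Cp are the narrowest.

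Among the metallothioneins, Mt1 stood at 37.0, 44.0 and 29.0 CPM in PE-MP libraries 1, 2 and 3, against 39.9, 12.0 and 68.2 CPM in normal chow libraries 1, 2 and 3. All PE-MP values lay inside the range of the normal chow values. The means were 36.7 ± 7.52 CPM under PE-MP chow and 40.0 ± 28.1 CPM under normal chow (SD, n = 3 per chow), and the log2 fold change was -0.13 ± 0.58 (SE; edgeR adjusted p = 0.927). Normal chow library 2 was low: it was the 1 library in which Mt1 lay at least 2-fold under all 5 others, a pattern that 1.65% of tested genes shared. That library also had the highest share of Rn18s-rs5 counts, and the part of this in the Mt1 value was not tested. With normal chow library 2 left out the log2 fold change of Mt1 was -0.57 (edgeR adjusted p = 0.254), and leaving out normal chow library 3 instead gave 0.50 (edgeR adjusted p = 0.734).

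Mt2, whose start lies before that of Mt1 on the same chromosome and strand, had lower CPM, with the same libraries lowest and highest under normal chow. It stood at 10.8, 24.9 and 7.06 CPM in PE-MP libraries 1, 2 and 3, and at 12.1, 4.44 and 26.3 CPM in normal chow libraries 1, 2 and 3. All PE-MP values again lay inside the range of the normal chow values. The log2 fold change was -0.0052 ± 0.73 (SE; edgeR adjusted p = 0.998), with a 95% interval of -1.78 to 1.77. Within PE-MP chow, library 2 was highest for both genes. In GENCODE M21 an antisense RNA, Gm45774, covers 73.5% of the exon bases of Mt2 on the other strand. It had 39, 118 and 11 counts in PE-MP libraries 1, 2 and 3, against 16, 4 and 14 in normal chow libraries 1, 2 and 3. The library kit kept the strand, but which strand setting the counting used was not stated, so reads of the pair may have been divided between them. Opposite-strand genes cover smaller parts of the exon bases of Mtf1 (8.09%), Slc30a1 (8.92%), Slc30a10 (9.13%) and Cp (1.13%).

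Mt1 and Mt2 together took 0.00513%, 0.00751% and 0.00422% of all counts in PE-MP libraries 1, 2 and 3. Under normal chow the share was 0.00480%, 0.00144% and 0.00850%. The difference between the means was 0.000703 percentage points (two-sided exact permutation p = 0.9, n = 3 per chow; the smallest p that 3 against 3 libraries allow is 0.1). The other metallothionein genes, Mt3 (known from brain) and Mt4 (known from stratified epithelium), had at most 4 and 0 counts in any library.

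Mtf1, the zinc-sensing activator itself, was among the steadiest genes in the data. It stood at 18.3, 17.6 and 18.6 CPM in PE-MP libraries 1, 2 and 3, and at 20.8, 20.9 and 19.9 CPM in normal chow libraries 1, 2 and 3. The groups did not overlap, and the log2 fold change was -0.18 ± 0.11 (SE; edgeR adjusted p = 0.436). That SE and p also draw on the spread of other genes, so they do not reflect the small spread of Mtf1 alone. Mtf1 and Cp were the 2 of 10 members whose chow groups did not overlap, both lower under PE-MP chow, against 26.0% of tested genes in either direction. Scaled to total counts only, the chow groups of both genes overlapped and both folds lay above 0 (0.13 for Mtf1 and 0.15 for Cp). Slc30a1, Slc39a8 and Atp7b were then the 3 members that did not overlap, all higher under PE-MP chow, against 37.2% of tested genes.

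**Figure D2:**
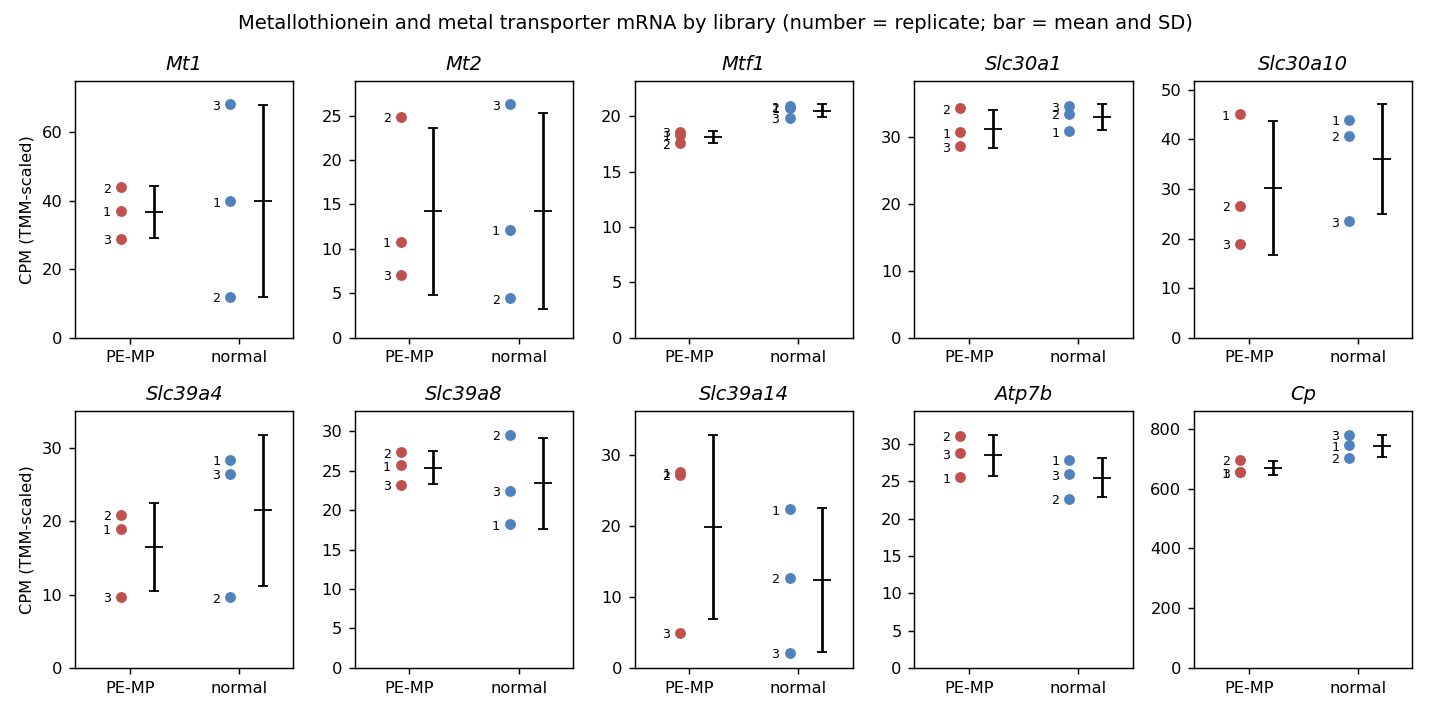
Level of each member in every library (vertical axes, TMM-scaled CPM, starting at 0), with PE-MP chow in red and normal chow in blue; numbers are replicates, and bars are the mean and SD of 3 libraries. The chows overlap in 8 panels, with Mtf1 and Cp as the exceptions, and Slc39a14 is lowest in library 3 of each chow.

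Of the exporters, Slc30a1 (ZnT1, the plasma membrane zinc exporter) held between 28.6 and 34.3 CPM in the PE-MP libraries and between 30.8 and 34.6 CPM in the normal chow libraries. Its log2 fold change was -0.080 ± 0.12 (SE; edgeR adjusted p = 0.755), with an interval of -0.36 to 0.20. Unlike the metallothioneins, which share its regulator, it did not dip in normal chow library 2, where it stood at 33.4 CPM. The ratio of metallothionein counts (Mt1 plus Mt2) to Slc30a1 counts was 1.56, 2.01 and 1.26 in PE-MP libraries 1, 2 and 3, against 1.69, 0.491 and 2.73 in normal chow libraries 1, 2 and 3.

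Slc30a10, a manganese exporter whose loss causes manganese overload in people and mice, was uneven within both chows. It stood at 45.1, 26.6 and 18.9 CPM in PE-MP libraries 1, 2 and 3, and at 43.9, 40.8 and 23.5 CPM in normal chow libraries 1, 2 and 3. Library 1 was highest and library 3 lowest in each chow. The log2 fold change was -0.25 ± 0.37 (SE; edgeR adjusted p = 0.749). Without PE-MP library 1 it was -0.66 (edgeR adjusted p = 0.448), and without PE-MP library 3 it was -0.019.

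Among the importers, Slc39a14 (ZIP14, which brings zinc, manganese and iron into hepatocytes and is induced by interleukin-6) varied most. It stood at 27.6, 27.3 and 4.93 CPM in PE-MP libraries 1, 2 and 3, and at 22.4, 12.7 and 2.17 CPM in normal chow libraries 1, 2 and 3. Library 3 was at least 2-fold under the other 4 libraries in both chows, a pattern shared with 0.321% of tested genes; simply being lowest in library 3 of each chow held for Slc39a14 and Slc30a10, 2 of 10 members, and for 4.92% of tested genes. These 2 libraries also had the lowest Rn18s-rs5 shares, 0.334% and 1.15%, and the part of that in the result was not tested. The means were 19.9 ± 13.0 CPM under PE-MP chow and 12.4 ± 10.1 CPM under normal chow (SD, n = 3 per chow), and the log2 fold change was 0.68 ± 0.94 (SE; edgeR adjusted p = 0.733). Leaving out normal chow library 1 gave 1.42, and leaving out normal chow library 3 gave 0.18.

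Slc39a8 (ZIP8, a close relative that carries manganese and zinc) did not follow that pattern. It stood at 25.7, 27.3 and 23.2 CPM in PE-MP libraries 1, 2 and 3, against 18.2, 29.6 and 22.5 CPM in normal chow libraries 1, 2 and 3. The PE-MP values lay inside the normal chow range, and the log2 fold change was 0.12 ± 0.19 (SE; edgeR adjusted p = 0.780). The ratio of Slc39a14 to Slc39a8 counts was 1.07, 1.0 and 0.213 in PE-MP libraries 1, 2 and 3, and 1.23, 0.431 and 0.0967 in normal chow libraries 1, 2 and 3.

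Slc39a4 (ZIP4), best known as the zinc importer of the small intestine, stood at 19.0, 20.9 and 9.73 CPM in PE-MP libraries 1, 2 and 3, and at 28.4, 9.67 and 26.6 CPM in normal chow libraries 1, 2 and 3. PE-MP library 3 and normal chow library 2 were both low and the groups overlapped. The log2 fold change was -0.38 ± 0.47 (SE; edgeR adjusted p = 0.696), and with 1 library left out it ranged from -0.74 without normal chow library 2 (edgeR adjusted p = 0.217) to -0.11 without PE-MP library 3 (edgeR adjusted p = 0.934). It was -0.14 when normal chow library 1 was dropped and -0.21 when normal chow library 3 was. The enterocyte markers Lct, Sis and Alpi had 0 counts in all 6 libraries, and Vil1 at most 17. The other enterocyte genes of the list, which hepatocytes can also express, were abundant. Apoa4 stood at 94.1 to 150 CPM under PE-MP chow and 122 to 225 CPM under normal chow, and Fabp2 at 52.6 to 71.4 CPM under PE-MP chow and 55.6 to 97.0 CPM under normal chow. Their part in the Slc39a4 values was not tested.

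Ratios of 2 members within a library do not depend on the scaling, and 3 were compared between the chows. Mt1 over Mt2 was 3.43, 1.77 and 4.11 in PE-MP libraries 1, 2 and 3, and 3.29, 2.69 and 2.60 in normal chow libraries 1, 2 and 3. The mean log2 ratio of PE-MP libraries minus that of normal chow libraries was 0.037 for Mt1 over Mt2, 0.27 for metallothioneins over Slc30a1 and 0.72 for Slc39a14 over Slc39a8. The two-sided exact permutation p-values were 0.9, 0.9 and 0.7, each 0.9 after adjustment over the 3 ratios (n = 3 per chow). The last of these differences turned to -0.25 without normal chow library 3.

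**Figure D3:**
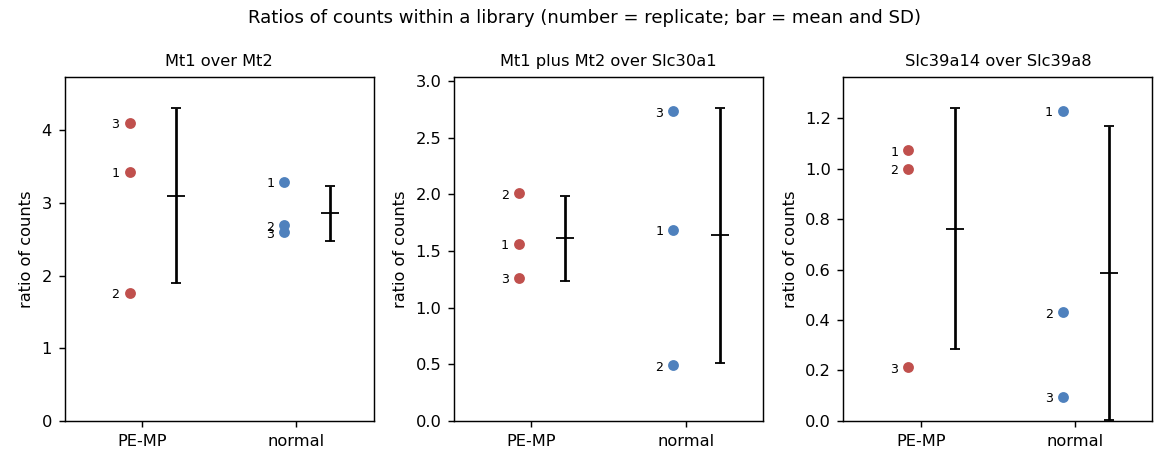
Ratio of counts within each library (vertical axes, starting at 0) for 3 pairs of members, with PE-MP chow in red and normal chow in blue; numbers are replicates, and bars are the mean and SD of 3 libraries. Mt1 over Mt2 varies less than 3-fold over all libraries, while Slc39a14 over Slc39a8 is lowest in library 3 of each chow, at 0.213 under PE-MP chow and 0.0967 under normal chow.

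The copper genes varied little between libraries. Atp7b stood at 25.6, 31.1 and 28.8 CPM in PE-MP libraries 1, 2 and 3, and at 27.9, 22.6 and 25.9 CPM in normal chow libraries 1, 2 and 3. The groups overlapped, and the log2 fold change was 0.16 ± 0.14 (SE; edgeR adjusted p = 0.565). Cp stood at 655, 697 and 655 CPM in PE-MP libraries 1, 2 and 3, against 745, 703 and 780 CPM in normal chow libraries 1, 2 and 3. The groups did not overlap, but the highest PE-MP value and the lowest normal chow value, both in library 2, differed by less than the spread within either chow, and the log2 fold change was -0.15 ± 0.11 (SE; edgeR adjusted p = 0.500).

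Per length of the principal GENCODE M21 transcript, Cp was the most abundant member, at 166 CPM per kilobase under PE-MP chow and 184 under normal chow. Mt1 came next, at 66.8 CPM per kilobase under PE-MP chow and 72.9 under normal chow, and then Mt2 at 27.9 in each chow. The other 7 members lay between 2.38 (Mtf1) and 7.19 (Slc39a8) CPM per kilobase under PE-MP chow, and between 2.52 (Slc39a14) and 7.83 (Slc39a4) under normal chow. By this length, the order of Cp over Mt1 over Mt2 held in all 6 libraries. It depends on the length used, since all exons of Mt1 merged span 1246 bases against 549 in its principal transcript. For Mt2 these lengths are 588 and 511 bases. The ranges of Slc30a10 and Slc39a4 overlapped those of Slc30a1, Slc39a8, Slc39a14 and Atp7b in each chow, so their order is not resolved.

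What separated the members was their spread between libraries of 1 chow. The SD within a chow, on log2 CPM, was 0.041 for Mtf1, 0.065 for Cp, 0.11 for Slc30a1 and 0.15 for Atp7b, at percentiles 0.200, 1.24, 7.38 and 15.4 of all tested genes. It was 1.60 for Slc39a14, 1.12 for Mt2, 0.93 for Mt1, 0.75 for Slc39a4 and 0.57 for Slc30a10, at percentiles 97.0, 92.3, 89.5, 84.6 and 75.8. Slc39a8, at 0.26, lay close to the median of all tested genes (0.31). The SD is generally smaller for more abundant genes, so these percentiles compare genes of unequal level. The highest library exceeded the lowest 10.3-fold for Slc39a14, 5.91-fold for Mt2 and 5.70-fold for Mt1 within normal chow. Within PE-MP chow these ratios were 5.60, 3.53 and 1.52.

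**Figure D4:**
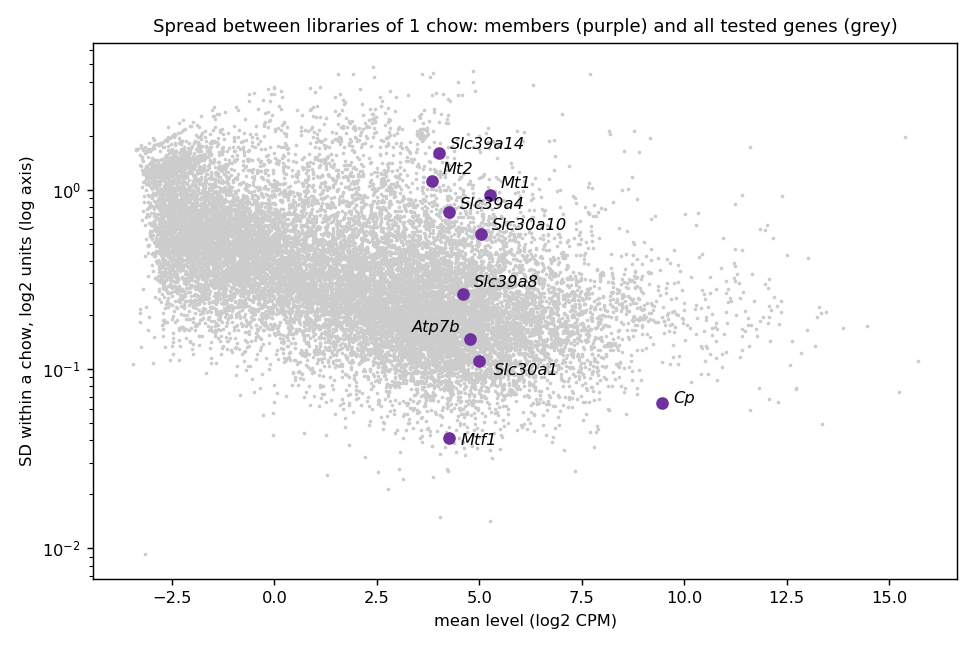
SD between libraries of 1 chow (vertical log axis, log2 units) against mean level (horizontal axis, log2 CPM) for 18043 tested genes in grey and the 10 members in purple. Mtf1 and Cp lie near the lower edge of genes of their level. Slc39a14, Mt2 and Mt1 lie in the upper part, with other genes of like level further above them.

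Likeness of pattern was measured as the root mean square difference of log2 CPM over the 6 libraries, after each gene was centred on its own mean. Mt1 and Mt2 were each other's nearest member, at 0.38 log2 units. Among the 18043 tested genes Mt1 ranked 6 by nearness to Mt2, and Mt2 ranked 43 by nearness to Mt1. The genes most like Mt1 were 9330104G04Rik (0.18), Elmo3 (0.20), B930094E09Rik (0.23), Gtf2ird2 (0.23) and Ccno (0.26). Those most like Mt2 were Gm29856 (0.25), Gm44101 (0.28), Gm48882 (0.34), ENSMUSG00000120120 (0.35) and the mitochondrial ribosomal protein gene Mrpl38 (0.35). Most of these genes had low levels, with Mrpl38 the most abundant. All 5 nearest to Mt1 were lowest in normal chow library 2, as were those nearest to Mt2 except Gm48882, which was lowest in PE-MP library 3. For Slc39a14, a gene chosen for this after its values were seen, the nearest were Gm43571 (0.43), Flnc (0.44), Pcdhga4 (0.45), Ctif (0.46) and ENSMUSG00000121153 (0.51), each lowest in normal chow library 3. Its nearest member was Slc30a10, at 1.09. These distances are descriptions over 6 libraries that differ in depth and chow.

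In the wider metal transport families 0 genes passed the edgeR threshold in either direction. Of the other SLC30 exporters 6 of 8 were tested; their log2 fold changes had a median of 0.027, and 0 were at an unadjusted p under 0.05. The smallest p was that of Slc30a3, which loads zinc into synaptic vesicles in neurons (log2 fold change 1.04 ± 0.48, SE; edgeR adjusted p = 0.309). Its level was low, at 0.635, 0.659 and 0.242 CPM in PE-MP libraries 1, 2 and 3. In normal chow libraries 1, 2 and 3 it was 0.214, 0.316 and 0.217 CPM, and the groups overlapped. Of the other SLC39 importers 10 of 11 were tested, with a median of -0.20. Unadjusted p was under 0.05 for 1 higher and 3 lower, against 17.9% of all tested genes. Slc39a5 (ZIP5, a basolateral zinc importer) had the smallest p. It stood at 0.455, 0.464 and 0.428 CPM in PE-MP libraries 1, 2 and 3, against 2.54, 0.749 and 1.28 CPM in normal chow libraries 1, 2 and 3 (log2 fold change -1.76 ± 0.46, SE; edgeR adjusted p = 0.154).

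Around Atp7b, 17 copper genes (uptake, chaperones, reductases and oxidases) were tested; their median log2 fold change was -0.24, with 2 higher and 3 lower at an unadjusted p under 0.05, and 0 past the threshold. Smallest by p was Xiap, an inhibitor of apoptosis that also takes part in copper handling (0.79 ± 0.19, SE; edgeR adjusted p = 0.140). Atox1, the chaperone that hands copper to ATP7B, was named after its values were seen. It stood at 67.2, 58.6 and 67.1 CPM in PE-MP libraries 1, 2 and 3, against 121, 81.4 and 140 CPM in normal chow libraries 1, 2 and 3, with no overlap. Its log2 fold change was -0.83 ± 0.21 (SE; edgeR adjusted p = 0.148). Of 7 other manganese and iron transporters 4 were higher and 0 lower at an unadjusted p under 0.05, against 17.9% of all tested genes. The 7 had a median of 0.35. Tfrc, the transferrin receptor that takes up iron, led them (0.90 ± 0.21, SE; edgeR adjusted p = 0.140).

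Genes that share inducers with the metallothioneins also had 0 called. Of all tested genes 17.9% had an unadjusted p under 0.05, in either direction. The median log2 fold change was 0.43 for 9 glucocorticoid receptor targets, with 1 higher and 0 lower at an unadjusted p under 0.05, and the smallest p for Tat, a tyrosine-degrading enzyme (0.53 ± 0.21, SE; edgeR adjusted p = 0.254). For 16 acute phase genes of interleukin-6 and STAT3 it was -0.26, with 0 higher and 3 lower, and the smallest p for Orm2, a plasma glycoprotein (-1.0 ± 0.27, SE; edgeR adjusted p = 0.164). For 7 tested NRF2 targets it was -0.18, with 1 higher and 1 lower, and the smallest p for the glutathione reductase Gsr (-0.49 ± 0.19, SE; edgeR adjusted p = 0.245).

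**Figure D5:**
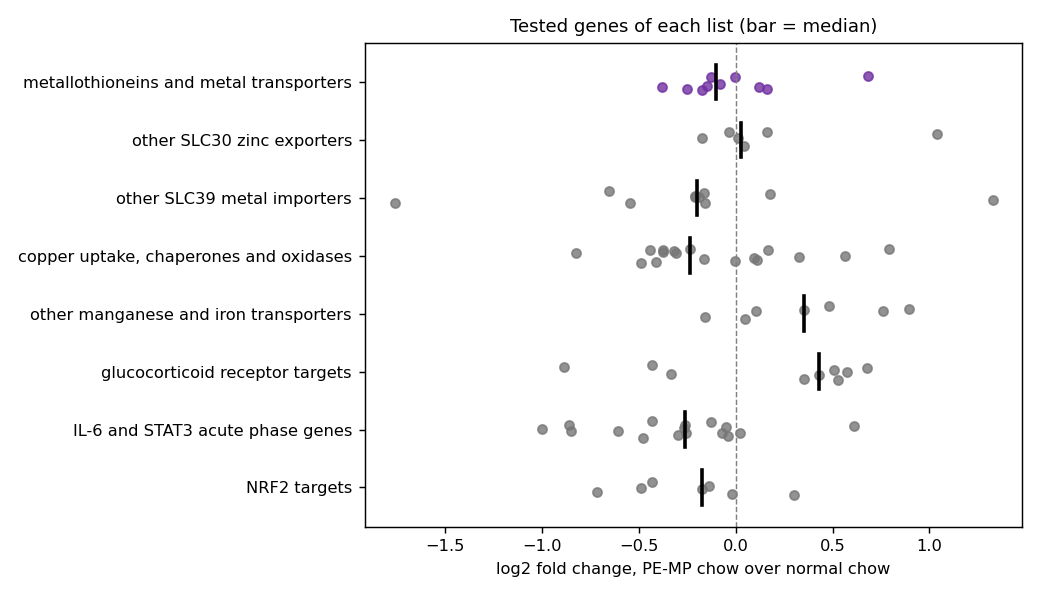
Log2 fold change (horizontal axis; PE-MP chow over normal chow) of each tested gene in 8 lists, 1 point per gene, with the list median as a bar. The 10 members in purple centre on -0.10, and no gene in any list passed the edgeR threshold.

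For some cell types the summed CPM of the markers did not overlap between chows, although 0 marker genes passed the edgeR threshold. Such sums follow their most abundant markers. Taken singly, 5 of 8 Kupffer cell and 1 of 7 endothelial markers did not overlap. The same held for 3 of 6 B and plasma cell, 1 of 6 T and NK cell and 2 of 3 adipocyte markers. Of all tested genes 26.0% did not overlap, in either direction. The 8 Kupffer cell markers summed to 120 to 201 CPM under PE-MP chow and to 87.7 to 114 CPM under normal chow, and the 7 sinusoidal endothelial markers to 137 to 174 CPM under PE-MP chow and 94.4 to 120 CPM under normal chow. The 6 B and plasma cell markers summed to 6.43 to 10.3 CPM under PE-MP chow and to 19.3 to 58.6 CPM under normal chow. The 6 T and NK cell markers summed to 1.92 to 3.52 CPM under PE-MP chow and 3.75 to 5.44 CPM under normal chow, and the 3 tested adipocyte markers to 3.55 to 5.74 CPM under PE-MP chow and 6.66 to 17.8 CPM under normal chow. Of the adipocyte list, Adipoq, Plin1 and Lep had at most 10, 7 and 0 counts in any library and were not tested. Cfd stood at 0.243 to 1.43 CPM under PE-MP chow and at 2.21 to 12.4 CPM under normal chow, while Fabp4 overlapped. Folds were above 0 for 8 of 8 Kupffer cell and 7 of 7 endothelial markers, and below 0 for 6 of 6 B and plasma cell, 6 of 6 T and NK cell and 3 of 3 adipocyte markers. Among all tested genes 51.7% lay above 0. Sums of hepatocyte, cholangiocyte, stellate, erythroid and enterocyte markers overlapped between chows. In whole liver, fewer cells of a type and less RNA per cell cannot be told apart, and the part of these shifts in the members' values was not tested.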

How the data were processed

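Raw read counts per gene were deposited by the authors for 6 mouse liver libraries, made from poly(A) RNA with a kit that keeps the strand, per the labels. The submitters' processing notes name bcl2fastq and build GRCm39; the aligner, the counter, its annotation and its strand setting were, however, not given in the sources used here. The table of the whole series and the files of single libraries held the same values in all 6 columns.

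The test on counts was that of edgeR 4.0.16, run in R 4.3.3 (quasi-likelihood F test, robust, TMM factors, default expression filter), two-sided, with Benjamini-Hochberg adjustment over 18043 genes and a threshold of 0.05. Levels are CPM scaled by the TMM factors. Log2 values for spread and likeness used a prior count of 2. DESeq2 1.42.0 and limma-voom (limma 3.58.1), 3 other scalings, 2 other filters, a table without mitochondrial and dominant genes, the replicate block and each library left out were alternatives. Single values per library were compared by an exact permutation test. Transcript lengths came from GENCODE M21 and promoters from RefSeq, both of build GRCm38, so no coordinate was joined to the counts.

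The members and lists were chosen with earlier results of these data known. Named were all members, the 5 genes most like Mt1 and Mt2, and the gene with the smallest p of each list; Atox1, the likeness of Slc39a14 and the shares of genes with a like library pattern were chosen after their values were seen. The hepatocyte marker Tf was not found under that symbol among the deposited genes, so 6 of the 7 listed hepatocyte markers were analysed.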

Additional observations from a re-analysis of the deposited data

How the results depend on the processing

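No member passed the 0.05 threshold under any of the 15 alternatives fitted, nor at an adjusted p of 0.1; the smallest adjusted p was 0.123 (Atp7b with total counts and no factors). Of 150 member values 131 kept their direction and 19 turned, none of them called. With total counts and no factors the log2 fold change was 0.16 for Mt1, 0.28 for Mt2, 0.13 for Mtf1, 0.22 for Slc30a1, 0.030 for Slc30a10 and 0.15 for Cp. With limma-voom it was 0.14 for Mt1 and 0.036 for Mt2. For Mt2 it was 0.022 with upper-quartile factors, 0.024 with the stricter filter and 0.0053 without mitochondrial and dominant genes. With 1 library left out it ranged from -0.57 to 0.50 for Mt1, from -0.68 to 0.78 for Mt2 and from -0.038 to 0.32 for Slc39a8.

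The number of genes called over the whole table, 1 as reported, was 3 with RLE factors, 10 with total counts and no factors, 1086 with DESeq2, 15 with limma-voom, 23 with no expression filter, 22 with the stricter filter and 53 at an adjusted p of 0.1. With 1 library left out it ranged from 1 to 1075: it was 2 without PE-MP library 2, 3 without PE-MP library 3 and, when normal chow library 1 or 2 was dropped, 3 and 1075. The metallothionein share differed by -0.00103 to 0.00250 percentage points with 1 library left out. The log2 ratio differences ranged from -0.21 to 0.40 for Mt1 over Mt2, from -0.25 to 1.58 for Slc39a14 over Slc39a8 and from -0.44 to 0.80 for metallothioneins over Slc30a1. The causes were not tested.

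The labels give both chows the replicate numbers 1 to 3, but same-numbered libraries deviated together only weakly (correlations of deviations over genes 0.003, 0.040 and 0.136), so they were not taken as pairs. With the replicate number as a block, edgeR called 0 genes and 0 members. At an unadjusted p under 0.05 there were 2848 of 18043 tested genes and 1 of 10 members. That member was Slc39a14 (log2 fold change 0.86, edgeR adjusted p = 0.253). In that fit the log2 fold change was 0.15 for Mt1 and 0.078 for Mt2. Members had 220 or more counts in every library.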
